A study of Homo sapiens with 4 samples.

Results

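Genes of the nuclear pore complex and of the transport through it were examined on 4 arrays of U87 cells, a widely used human glioma line. The set comprised 32 genes: the nucleoporins that build the pore, the regulators of the small GTPase RAN, and the main import and export carriers. A probe set belonged to the set where the array annotation assigned it to 1 gene only and that gene was on the list, which gave 82 of 41920 probe sets and all 32 genes, of 18304 genes measured. The list was drawn up with earlier results of the same arrays known, among them a lower NUP210 in cells given miR-20a, so the values below describe the members and are not independent support for a change in them.

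QK, the RNA-binding protein encoded by QKI, was knocked down in all 4 samples. In 2 samples the cells had further been transduced with miR-20a, which belongs to the miR-17 family of microRNAs, and in the other 2 with miR-NT, a scrambled control microRNA that targets nothing by design. The knockdown is shared by both groups, and no array of cells without it was analysed here. The labels give neither the reagent used for the knockdown, nor whether the cells were a clone, nor whether replicates came from separate cultures, so the replicate spread behind each p-value may be technical.

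The nuclear pore complex is a large ring-shaped channel in the nuclear envelope through which proteins and RNA pass between nucleus and cytoplasm. An outer ring on each face and an inner ring form its scaffold, membrane proteins anchor it, and nucleoporins rich in phenylalanine-glycine repeats fill the channel. Carriers of the importin and exportin families cross this channel with their cargo, and RAN, loaded with GTP in the nucleus and hydrolysing it in the cytoplasm, sets the direction. In dividing cells such as glioma lines the complex is taken apart and rebuilt at every mitosis.

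The agent that separates the groups is shown first. The mature miR-20a of the 5′ arm, as RefSeq gives it for GRCh38.p14 (chr13:91351072-91351094, plus strand), is written 5′ to 3′ with its seed, bases 2 to 8, in capitals, beside miR-17, a relative from the same cluster with the same seed.
hsa-miR-20a-5p: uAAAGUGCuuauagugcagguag
hsa-miR-17-5p: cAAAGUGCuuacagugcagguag
MicroRNAs lower transcripts that pair with the seed, mostly in their 3′ untranslated regions. Whether the members carry such sites was not examined, since no transcript sequence was used here.

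Values are log2 probe-set levels as deposited, and a change is the mean of the miR-20a arrays minus the mean of the miR-NT arrays, with the standard error (SE) from limma's fit over all probe sets. As a set the members stayed close to the rest of the array. Their median log2 change was 0.01 over 82 probe sets, with 43 higher and 39 lower, against -0.02 over all 41920 probe sets, of which 18753 were higher. With each gene read at its probe set of highest mean level, 22 members were higher and 10 lower, with a median of 0.07 against -0.01 over all genes. The groups did not overlap for 16 higher and 4 lower genes, 50% and 12.5% of the members, where the shares of all genes were 25.5% and 27.0%. Quantile normalization turned this gene-level median to -0.01 and left 14 members higher, so no common direction is given for the set.

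In the fit over all probe sets, 0 of 82 member probe sets passed an adjusted p of 0.05 (limma, Benjamini-Hochberg), where 0.136% of all probe sets passed, 0.0167% with a lower level. At an unadjusted p under 0.05 there were 12 member probe sets, 6 higher and 6 lower, or 14.6% against 17.9% of all, of which 9.46% were higher and 8.4% lower (limma). In the fit with 1 probe set per gene, 1 of 32 members passed, NUP210. Of all genes 0.426% passed in either direction and 0.0601% with a lower level. NUP210 was read there at 213947_s_at, whose mean level of 7.0503 was barely above the 7.0439 of 220035_at. The change of 220035_at was only -0.045, so the gene-level result of NUP210 rests on a near tie in level between probe sets. The arrays of the groups did not overlap for 26 member probe sets that were higher and 18 that were lower in miR-20a cells, which is 31.7% and 22.0%. Over the whole array the shares were 21.7% and 27.2%.

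**Figure D1:**
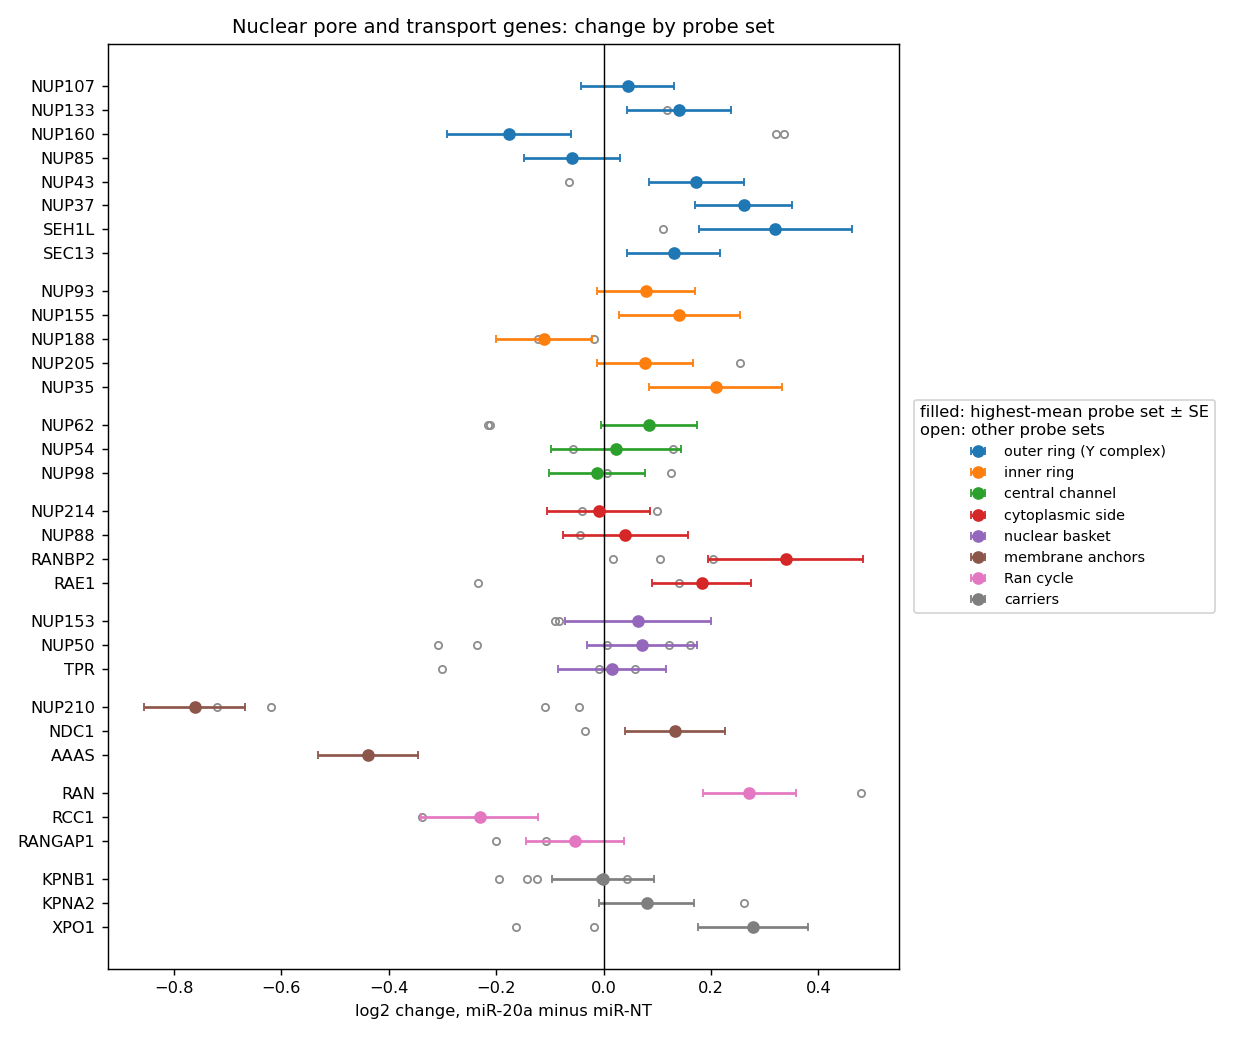
Log2 change (miR-20a minus miR-NT) of every member probe set, with genes grouped by their place in the pore. Filled points are the probe set of highest mean level with its SE from limma and open points the other probe sets of the gene. NUP210 at -0.76 and AAAS at -0.44 lie furthest to the left, RAN reaches 0.48 on the right, and the remaining probe sets lie between -0.34 and 0.34.

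The largest decreases of the set were those of NUP210 and AAAS. Both are grouped here with NDC1 as membrane anchors, but NDC1 did not share the decrease. NUP210, also called gp210, is a transmembrane nucleoporin with most of its length in the lumen of the nuclear envelope. Its probe set of highest mean level (213947_s_at) was at 7.49 and 7.38 log2 units in miR-NT cells and 6.63 and 6.71 in miR-20a cells. Both miR-20a arrays lay below both miR-NT arrays, by a group difference several times the distance between arrays of a group. The change was -0.76 ± 0.09 (SE), or 1.70-fold, with an adjusted p of 0.063 over all probe sets and 0.034 over 1 probe set per gene (limma). Left out in turn, miR-NT replicate 1, miR-NT replicate 2 and miR-20a replicate 1 took the gene-level adjusted p to 0.41, 0.17 and 0.057 (limma), with changes of -0.71, -0.82 and -0.72.

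The 5 probe sets of NUP210 split into a group of 3 with clear differences and 2 with small ones. Probe set 212316_at was at 7.05 and 7.32 in miR-NT cells and 6.35 and 6.58 in miR-20a cells, a change of -0.72 ± 0.13 (SE). Probe set 212315_s_at was at 7.05 and 7.14 against 6.56 and 6.39, a change of -0.62 ± 0.10 (SE). In neither did the groups overlap.
The other two moved little. Probe set 213945_s_at was at 5.71 and 5.72 in miR-NT cells and 5.63 and 5.58 in miR-20a cells, a change of -0.11 ± 0.09 (SE). Probe set 220035_at was at 6.99 and 7.15 against 6.81 and 7.23, so that its groups overlapped, with a change of -0.05 ± 0.15 (SE) that was 0.01 after cyclic loess normalization. With the 5 probe sets averaged, the change of NUP210 was -0.45 and its adjusted p over all genes 0.063 (limma). All probe sets of mean levels between 6 and 7 had a 5th percentile of change of -0.30, and 2 of the 3 strongly lower probe sets lie in that range. The levels of NUP210 are near or below the array median, and without detection calls they cannot be separated from background, so its folds are those of the deposited values only.

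**Figure D2:**
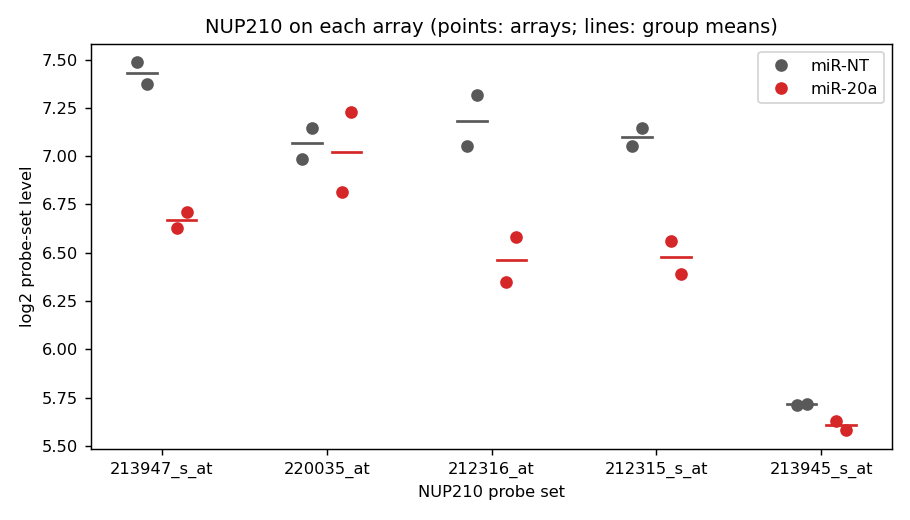
Log2 level of the 5 NUP210 probe sets on each array, with points for arrays and lines for group means. In 213947_s_at, 212316_at and 212315_s_at both miR-20a arrays lie at least 0.47 below both miR-NT arrays, whereas in 220035_at the groups overlap.

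AAAS, or aladin, is the nucleoporin mutated in triple A syndrome and is tethered to the pore by NDC1. Its single probe set was at 9.07 and 8.93 log2 units in miR-NT cells and 8.56 and 8.56 in miR-20a cells. Both miR-20a arrays were lower, with a change of -0.44 ± 0.09 (SE), 1.36-fold, which did not pass the test over all probe sets (adjusted p = 0.14, limma). It ranged from -0.50 to -0.41 over the 4 scalings tried. NDC1, the transmembrane protein needed for pore assembly, was on the other side, at 8.85 and 8.94 against 9.07 and 8.98, a change of 0.13 ± 0.09 (SE) by its probe set of highest level and -0.03 by the other.

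The proteins that charge and discharge RAN did not share a direction with RAN itself. RAN was higher on both miR-20a arrays by both of its probe sets. Probe set 200750_s_at was at 12.13 and 12.17 log2 units in miR-NT cells and 12.43 and 12.43 in miR-20a cells, a change of 0.27 ± 0.09 (SE). Probe set 200749_at was at 9.02 and 9.08 against 9.58 and 9.47, a change of 0.48 ± 0.09 (SE), the largest positive value of the set (adjusted p = 0.13, limma). After cyclic loess normalization, the change of the former was 0.12.
RCC1, the chromatin-bound exchange factor that loads RAN with GTP, was lower by both probe sets. Probe set 206499_s_at was at 9.55 and 9.31 in miR-NT cells and 9.22 and 9.19 in miR-20a cells, a change of -0.23 ± 0.11 (SE). Probe set 215747_s_at was at 9.17 and 9.001 against 8.71 and 8.79, a change of -0.34 ± 0.10 (SE). Without miR-NT replicate 1, the higher control array, these changes shrank to -0.11 and -0.25. RANGAP1, which activates GTP hydrolysis by RAN at the cytoplasmic face, had changes between -0.20 and -0.05 over 3 probe sets. These lay between -0.30 and -0.17 after quantile normalization and between -0.17 and -0.02 after median centring. Without miR-NT replicate 1 they lay between -0.12 and -0.002. The groups overlapped in the RANGAP1 probe set of highest level. None of these RAN cycle probe sets passed over all probe sets (smallest adjusted p = 0.13, limma).

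Among the carriers, the export receptor XPO1 was higher by its probe set of highest level and not by the others. Probe set 208775_at was at 10.41 and 10.34 log2 units in miR-NT cells and 10.75 and 10.56 in miR-20a cells, a change of 0.28 ± 0.10 (SE) that was 0.18 without miR-20a replicate 1. The remaining XPO1 probe sets had changes of -0.16 and -0.02, the latter 0.03 after quantile normalization. KPNA2, an importin alpha that recognises the classical nuclear localisation signal, had changes of 0.08 and 0.26, of which the former turned to -0.08 after quantile normalization. KPNB1, its partner importin beta, is covered by 6 probe sets with changes between -0.19 and 0.04. After quantile normalization all were negative, between -0.31 and -0.05, and after cyclic loess also, between -0.31 and -0.04. After median centring they lay on both sides of 0, between -0.16 and 0.08. The KPNB1 probe set of highest level lay at 12.18 and 12.11 against 12.21 and 12.08, and the groups overlapped.

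**Figure D3:**
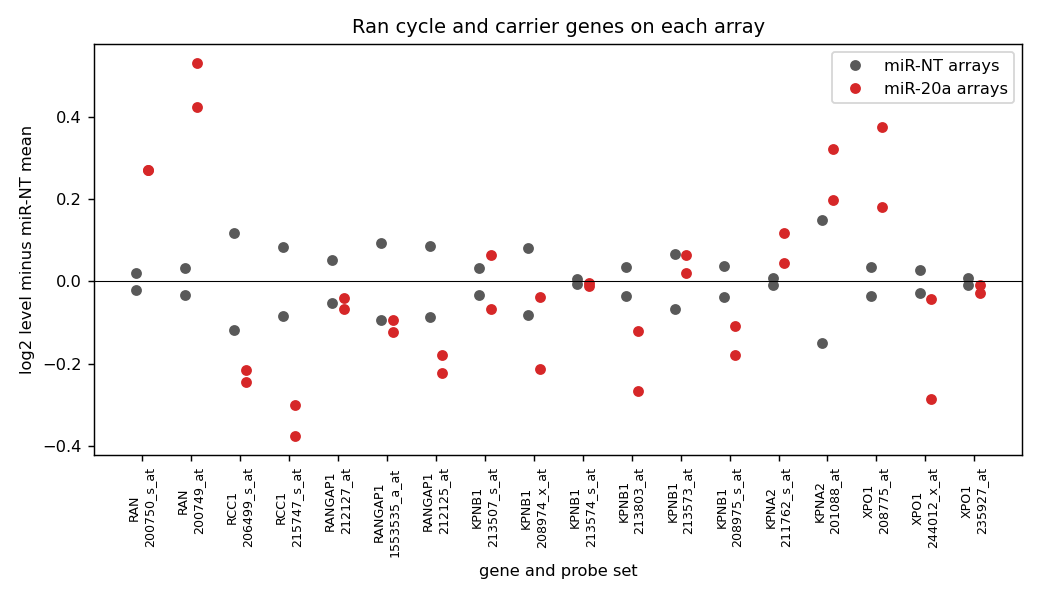
Log2 level of each probe set of RAN, RCC1, RANGAP1, KPNB1, KPNA2 and XPO1 on each array, after subtraction of the miR-NT mean of that probe set. Both RAN probe sets are above and both RCC1 probe sets below the miR-NT arrays in miR-20a cells. The 6 KPNB1 probe sets lie on both sides of 0 under the deposited scaling drawn here and after median centring. After quantile or cyclic loess normalization all lie below 0.

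The outer ring, or Y complex, which also binds kinetochores in mitosis, was represented here by NUP107, NUP133, NUP160, NUP85, NUP43, NUP37, SEH1L and SEC13. Of its 13 probe sets 10 were higher and 3 lower, with a median change of 0.13, and 0 passed over all probe sets (limma, 2 at an unadjusted p under 0.05, both higher, where 9.46% of all probe sets were). NUP37 was at 9.52 and 9.56 log2 units in miR-NT cells and 9.85 and 9.75 in miR-20a cells, a change of 0.26 ± 0.09 (SE) that was 0.16 after quantile normalization. SEH1L was at 8.021 and 7.999 against 8.54 and 8.12, a change of 0.32 ± 0.14 (SE) that was 0.11 without miR-20a replicate 1. NUP85 was at 9.04 and 8.96 against 8.91 and 8.97, a change of -0.06, with overlapping groups.
NUP160, a large scaffold protein of the ring, was the only member with probe sets of opposite sign at least 0.5 apart. Probe set 214962_s_at was at 6.71 and 6.48 against 6.50 and 6.33, a change of -0.18 ± 0.12 (SE) that was -0.06 without miR-NT replicate 1, whereas 214963_at was at 6.30 and 6.37 against 6.53 and 6.78, a change of 0.32 ± 0.11 (SE) that was 0.20 without miR-20a replicate 2. The third, 212709_at, was at 6.13 and 6.40 against 6.81 and 6.39, with overlapping groups. Its change was 0.335 ± 0.16 (SE) and 0.12 without miR-20a replicate 1. NUP43 had a change of 0.17, 0.08 after quantile normalization, NUP133 of 0.14 and NUP107 of 0.04 by the probe sets of highest level. SEC13, which also serves in the COPII coat of secretory vesicles, had a change of 0.13 that was -0.05 after quantile normalization, and that of NUP107 turned to -0.04.

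Inner ring genes, whose products link the scaffold to the channel and the membrane, varied little. Their 8 probe sets had changes between -0.12 and 0.25 with a median of 0.08, and 0 passed (limma, 1 at an unadjusted p under 0.05, higher, where 9.46% of all probe sets were). NUP35, which binds the membrane, was at 7.54 and 7.85 log2 units in miR-NT cells and 7.95 and 7.87 in miR-20a cells, a change of 0.21 ± 0.12 (SE). Without miR-NT replicate 1 it was 0.05 and without miR-NT replicate 2 it was 0.36. NUP188 was at 9.49 and 9.40 against 9.33 and 9.34, and all 3 of its probe sets had a negative change, -0.11 for the one of highest level and -0.02 for the smallest, which was 0.02 after cyclic loess normalization. NUP155 had a change of 0.14. It was at 7.68 and 7.94 against 7.93 and 7.97, with overlapping groups, and was 0.01 without miR-NT replicate 1. Values for its ring partners NUP93 and NUP205 were 0.08 each by the probe sets of highest level, and both turned negative after quantile normalization, at -0.02 and -0.04. The other NUP205 probe set, 222382_x_at, was at 6.56 and 6.47 against 6.77 and 6.76, with no overlap and a change of 0.25 ± 0.09 (SE) that was 0.29 after quantile normalization. It was the inner ring probe set with an unadjusted p under 0.05.

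The 9 probe sets of the central channel had changes between -0.22 and 0.13, with a median of 0.01, and 0 passed (limma). At an unadjusted p under 0.05 there were also 0, where 17.9% of all probe sets were (limma). With 9 probe sets, this count cannot be told apart from that share. NUP98, whose repeats form the permeability barrier, had changes of -0.01, 0.01 and 0.12 over its 3 probe sets, and the former pair changed sign with the scaling. NUP54 had a change of 0.02 by its probe set of highest level. NUP62, which forms a complex with NUP54, had a change of 0.08 by probe set 202153_s_at, -0.01 after quantile normalization. In it both miR-20a arrays, at 9.67 and 9.63, lay above the miR-NT arrays, at 9.52 and 9.60. By 207740_s_at the change was -0.21, and both miR-20a arrays, at 8.93 and 8.93, lay below the miR-NT arrays, at 9.24 and 9.05. Of the channel probe sets, 2 were higher and 1 lower without overlap of the groups, where 21.7% and 27.2% of all probe sets were. The third NUP62 probe set, 236505_at, had a change of -0.22 at a low level, with overlapping groups. A further probe set shared by NUP62 and IL4I1, which the rule leaves out, had a change of -0.16.

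On the cytoplasmic side, RANBP2, the large filament protein that binds RAN and acts as a SUMO ligase, had 4 probe sets, all higher. Its probe set of highest level was at 7.96 and 8.03 log2 units in miR-NT cells and 8.54 and 8.12 in miR-20a cells, a change of 0.34 ± 0.14 (SE). Without miR-20a replicate 1 it was 0.13. The other RANBP2 probe sets had changes between 0.02 and 0.20, and the smallest turned to -0.09 without miR-NT replicate 1. RANBP2 has near-identical RGPD copies in the genome, so its probe sets may read those as well. A probe set annotated to RANBP2 and the RGPD genes together, which the rule leaves out, had a change of 0.02. RAE1, a messenger RNA export factor that binds NUP98, had changes of 0.18 and 0.14 in its 2 stronger probe sets, 0.07 and 0.05 after quantile normalization, and -0.23 in the weakest. NUP88 and NUP214, which bind each other and XPO1, had changes of 0.04 and -0.01 by the probe sets of highest level, the latter 0.02 after median centring.

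The nuclear basket, which faces the chromatin, showed no group separation at its probe sets of highest level. NUP153 had a change of 0.06, NUP50, which releases importin alpha from its cargo, of 0.07, and TPR, the filament that forms the basket, of 0.02. After quantile normalization the values for NUP50 and TPR were -0.01 and -0.07. The 3 basket probe sets whose groups did not overlap were all lower, as were 27.2% of all probe sets, and all of low level. They were 231064_s_at and 218293_x_at of NUP50, with changes of -0.31 and -0.24, and 215220_s_at of TPR, with -0.30. Without detection calls, levels this low cannot be separated from background.

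The members' changes varied with their level. The Spearman correlation of change with mean level was 0.25 across the 82 member probe sets and 0.22 across all probe sets, which share the same 4 arrays. The 28 member probe sets with a mean level under 7 had a median change of -0.05, and all 21069 probe sets in that range had -0.04. At 7 or above the medians were 0.04 for 54 member probe sets and 0.01 for all 20851.

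**Figure D4:**
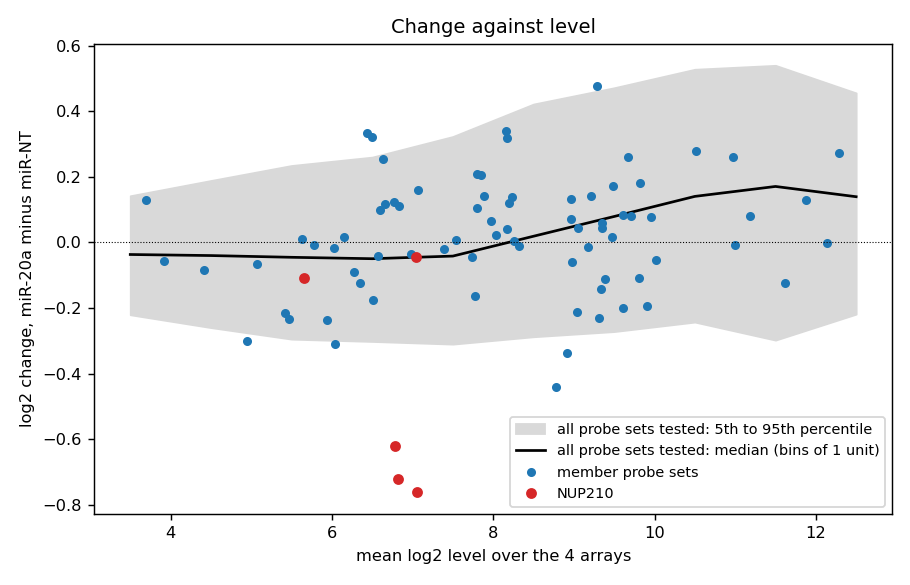
Log2 change of the member probe sets (blue; NUP210 in red) against their mean log2 level over the 4 arrays. The line and the grey band are the median and the 5th to 95th percentile of all probe sets in bins of 1 log2 unit. In this plot 3 NUP210 probe sets lie well below the band. Other members also lie outside it, among them AAAS at -0.44 and RCC1 215747_s_at at -0.34 below, and NUP160 212709_at at 0.335 above.

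Quantile normalization turned the sign of 16 of 82 member probe sets, none of which had a change larger than 0.13 under the deposited scaling. NUP210, AAAS and RCC1 remained lower and RAN, XPO1, NUP37, SEH1L, RANBP2 and NUP35 higher by their probe sets of highest level under quantile normalization, cyclic loess and median centring. Over these scalings the change of NUP210 lay between -0.73 and -0.71, against -0.76 as deposited. Under quantile normalization that of XPO1 dropped to 0.13 and that of RCC1 went to -0.32.

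**Figure D5:**
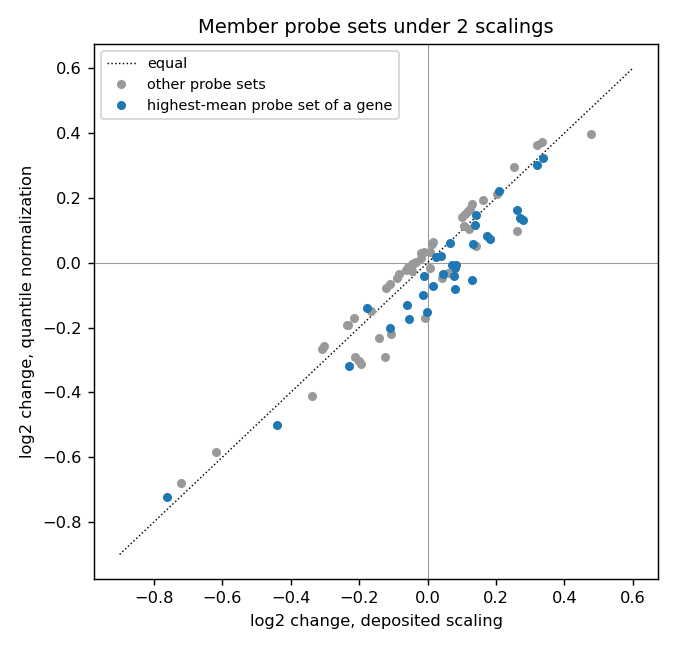
Log2 change of each member probe set under the deposited scaling (horizontal) and after quantile normalization (vertical), with blue points for the probe set of highest mean level of each gene. Points below the dotted line of equality are lower after quantile normalization. The point of NUP210 at the lower left, -0.76 and -0.72, is nearly the same under both.

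Beyond the members, 48 other genes of the pore, of transport and of the nuclear envelope were listed and 45 were measured. Of these 20 were higher and 25 lower, with a median change of -0.01, and 0 passed over all genes (limma, smallest adjusted p = 0.11). At an unadjusted p under 0.05, 5 were higher and 1 lower, where 12.6% and 9.24% of all genes were (limma). SUN1, an inner nuclear membrane protein that links lamina and cytoskeleton, had a change of 0.37, and the transfer RNA exporter XPOT of 0.32. NXT2, a cofactor of messenger RNA export, was at 0.35, the importin alpha KPNA4 at 0.29 and TNPO1, transportin, at 0.24. EMD, emerin of the inner nuclear membrane, was on the lower side, at 9.16 and 9.17 log2 units in miR-NT cells and 8.90 and 8.77 in miR-20a cells. POM121, the further membrane nucleoporin that anchors the pore beside NUP210 and NDC1, had a change of -0.01.

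Upstream sequences are shown for the 3 members with the largest change by any probe set, since the direction differs between them. Each is the run of 250 bases before the start of the gene in RefSeq (GRCh38.p14), 5′ to 3′ on the gene's strand, at chr3:13420323-13420572 (minus) for NUP210, chr12:53321611-53321860 (minus) for AAAS and chr12:130871816-130872065 (plus) for RAN. Capitals mark matches to the motifs searched: the GC box GGGCGG, the CCAAT box CCAAT, the ETS core CCGGAAG and the NRF1 part GCATGCGC, on both strands.
NUP210: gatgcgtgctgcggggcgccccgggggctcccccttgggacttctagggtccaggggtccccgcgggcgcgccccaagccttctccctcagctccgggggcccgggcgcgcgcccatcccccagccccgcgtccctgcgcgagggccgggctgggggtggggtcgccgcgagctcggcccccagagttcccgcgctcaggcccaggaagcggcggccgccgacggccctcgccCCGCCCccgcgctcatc
AAAS: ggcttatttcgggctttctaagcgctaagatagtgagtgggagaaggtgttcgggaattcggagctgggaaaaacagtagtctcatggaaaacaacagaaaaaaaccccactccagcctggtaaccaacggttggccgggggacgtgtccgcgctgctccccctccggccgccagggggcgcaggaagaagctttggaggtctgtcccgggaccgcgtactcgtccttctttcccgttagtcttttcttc
RAN: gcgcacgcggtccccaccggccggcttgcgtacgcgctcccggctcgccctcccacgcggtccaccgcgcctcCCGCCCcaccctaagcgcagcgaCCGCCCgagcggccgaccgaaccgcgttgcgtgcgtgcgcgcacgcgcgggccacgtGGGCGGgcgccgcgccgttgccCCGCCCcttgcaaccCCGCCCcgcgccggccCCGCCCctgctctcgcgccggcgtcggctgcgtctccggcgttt
The run before RAN held 6 GC boxes and that before NUP210 held 1, at 81.2% and 80.8% G and C, whereas AAAS, at 56.4%, held none of the 4 motifs.

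Across the promoter windows of 300 bases, 250 before and 50 after a start, RefSeq gave 40 windows for 30 members, and NUP43 and KPNB1 had none. The ETS core was found in 30.0% of member windows and 10.3% of all 35116 windows, the NRF1 part in 12.5% and 3.1%, the GC box in 52.5% and 45.0%, and the CCAAT box in 37.5% and 34.6%. Several windows of a gene can overlap, and member windows were richer in G and C, with a median of 64.5% against 58.7%. The ETS core was present for NUP107, NUP160, NUP214, NUP35, NUP37, NUP50, NUP54, NUP88, RCC1, SEC13 and SEH1L, members with changes on both sides of 0.

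Array-wide values that touch these results were as follows. The arrays had medians between 6.97 and 7.01 log2 units and correlated at r = 0.9907 to 0.9961. The miR-20a arrays differed in the members' level, with a median deviation from the probe-set means of 0.05 on replicate 1 and -0.03 on replicate 2. QKI, knocked down in both groups, had 10 probe sets with changes between -0.43 and 0.18. For ACTB, the level of the 3′ control probe set minus that of the 5′ one, which reflects RNA quality, was 0.27 ± 0.11 (SD, n = 2) in miR-NT cells and 0.49 ± 0.04 (SD, n = 2) in miR-20a cells, and its part in the members' changes was not tested. Of the glioma markers, VIM, CD44 and CHI3L1 were at 12.38 or above in both groups, while NES, SOX2 and GFAP were between 6.89 and 8.21. Of 9 markers of epithelial, endothelial and immune cells, EPCAM, CDH1 and CDH5 were at 5.06 or below and the other six between 5.85 and 8.73, with no detection calls to separate these from background. CHI3L1, a secreted glycoprotein, fell by 1.12 from 13.50 to 12.38 (adjusted p = 0.011 in limma's fit over genes). None of the 9 passed that fit. ERG, CD3E and KRT5 were lower on both miR-20a arrays, with changes of -0.34, -0.28 and -0.22 and unadjusted p-values under 0.05 (limma). Of all genes 9.24% were lower at that p, and 27.0% were lower without overlap of the groups. The glioma markers NES and SOX2 were also lower on both miR-20a arrays, with changes of -0.21 and -0.25. CD44 was higher on both, with a change of 0.18. The part of these markers in the members' changes was not tested.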

How the data were processed

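RNA of 2 miR-20a and 2 miR-NT samples was read on 1 single-colour Affymetrix array each. The authors deposited 1 log2 value per probe set and array, and per the submitters' processing notes the R package affy was used. How the authors corrected, normalized and summarized the probes is not given here. Values ran from 3.45 to 15.07, from which base 2 was inferred. Gene names came from the platform annotation held by GEO, and all 32 member symbols matched RefSeq by Entrez identifier. The 10 array controls were left out.

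Group differences were estimated by limma 3.58.1 under R 4.3.3 (lmFit, then eBayes, no covariate, two-sided, Benjamini-Hochberg) over all 41920 probe sets and, separately, over 18304 genes at the probe set of highest mean level. An exact permutation test of 2 arrays against 2 cannot go below p = 0.333. In simulations of this fit over all probe sets, 1.9% of changes of 0.5 log2 units, 83.3% of 1 and 97.6% of 1.5 were recovered. The simulations changed only a few of the probe sets and drew their spread independently. In the data 17.9% of all probe sets had an unadjusted p under 0.05 (limma), so recovery there may differ. The number of arrays limits the precision.

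Members, lists and tests were chosen with earlier results of these data known. The rule for named genes took all members, with values on every array for NUP210, for the 6 lowest and 6 highest changes, and for members with opposite probe sets 0.5 apart. Values for further probe sets were added after seeing the data. Alternatives were a replicate block, 3 scalings, a filter at the 40th percentile of level, a trend and robust fit, a threshold of 0.1, averaged probe sets and leaving out each array. Crossed pairing was added after seeing the data.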

Additional observations from a re-analysis of the deposited data

Results flagged for a closer look

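Control probe sets enter no comparison. Their 3′ minus 5′ difference was above both miR-NT values in each miR-20a sample for ACTB (means of 0.486 against 0.272 log2 units) and GAPDH (0.275 against 0.222).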

How the results depend on the processing

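The count of all probe sets past the threshold was 57. It was 334 with probe sets under the 40th percentile left out, 957 with a trend and robust fit and 159 at a threshold of 0.1, and 0 to 66 with 1 array left out (limma). With the replicate number as a block it was 0 (limma, 5754 at an unadjusted p under 0.05), and with the pairing crossed, added after seeing the data, also 0 (7343 unadjusted). The deviations of same-numbered arrays correlated at -0.12, and nothing in the labels pairs them. Member probe sets past the threshold numbered 2 of 63 with low probe sets left out, both of NUP210, beside 334 of 25152 over the array. With the trend and robust fit they numbered 5 of 82 (3 of NUP210, 1 of AAAS and, higher, 1 of RAN), beside 957 of 41920. At a threshold of 0.1 they numbered 1 of 82, beside 159 of 41920. They were 0 under the remaining settings, the block and each array left out included. Counting genes, the 1 member past the threshold became 0 with the replicate block, 0 with crossed pairing and 0 with averaged probe sets. It became 2 with low probe sets left out, 3 with the trend and robust fit, 2 at a threshold of 0.1 and 0 to 1 with 1 array left out. Of the 45 other transport genes measured, 2 passed with the trend and robust fit, EMD and SUN1. The share of all genes that passed under each alternative is not given here. These gene counts therefore cannot be set against the whole array. The median change of member probe sets was -0.01 after quantile normalization and after cyclic loess, and -0.0305 (without miR-20a replicate 1) to 0.0644 (without miR-20a replicate 2) with 1 array left out. At the gene level NUP210 kept its sign under every setting run, but most could not turn it. Both blocks, the filter on low probe sets and the trend and robust fit left its change at -0.76 by design. Leaving out 1 array could not turn it, since the groups did not overlap. Averaging (-0.45) could not, since all its probe sets were lower. The other scalings gave -0.73 to -0.71. NUP210 was listed with its decrease known, so the constant sign is not independent support. With every array kept, its gene-level adjusted p lay between 0.0105 and 0.253 (limma). The cause of these differences was not tested.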
